A study of Homo sapiens with 3 samples.

Results

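The library from cells with a USP39 knockout (USP39-KO) was set directly against the library from cells with a SIRT7 knockout (SIRT7-KO), with no control in the ratios of the knockouts. The genes compared were those with at least 100 read counts in 1 or both knockout libraries, which were 10003 of the 22827 genes in the deposited table. Of these, 9468 had at least 100 counts in both libraries, 255 passed through USP39-KO only and 280 through SIRT7-KO only. A gene that passed through 1 library only had to be higher there, so the counts of all called genes are also given for those well read in both. Calls within the gene lists below were not recounted this way. At the limit itself, the 17 genes whose higher count was exactly 100 had log2 ratios from -0.98 to 1.49, and the 8 genes just outside, at 99, had ratios from -1.17 to 1.15.

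The study sequenced RNA from 3 libraries, a control, a USP39-KO and a SIRT7-KO, of cells that carry the label Hep3B, which is a liver cancer line of human origin. The labels give the genotype of each library and no treatment, and do not say how the knockouts were made or whether each was 1 clone. Each side of the comparison was therefore 1 library, the ratios describe these libraries rather than the genotypes, and no test was made. Each interval printed with a ratio is exact, at the 95% level, and covers counting error only.

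USP39 resembles ubiquitin-specific proteases but works in the spliceosome, where it helps the U4/U6.U5 tri-snRNP to join the assembling complex before introns are removed. SIRT7 is a nuclear deacylase of the sirtuin family that acts on histones and on the transcription of ribosomal DNA, and that has been tied to stress responses. Several programmes named below answer to stress: ATF4 is translated when amino acids run short or proteins misfold and switches on amino acid supply, HIF factors switch on oxygen-sensitive genes, and CDK inhibitors hold the cell cycle.

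Library totals were 16630636 counts in USP39-KO, 16151522 in SIRT7-KO and 19427940 in the control, with reads in 14361 to 14711 genes. Of 19 defining hepatocyte genes none reached 100 counts in either knockout. Among them ALB, AFP, TTR, APOA2, APOB, APOH, AHSG, FOXA2 and GPC3 had 0 reads in all 3 libraries, and the summed level of the 19 was 4.01 CPM (counts scaled to a common library size) in USP39-KO, 3.80 in SIRT7-KO and 11.9 in the control. The epithelial keratins KRT8, KRT18 and KRT7 were read well, KRT19 was at 0, and the 6 epithelial markers summed to 2158, 2332 and 2688 CPM in the same order. Fibroblast markers summed to 140, 115 and 118 CPM with 2 of 9 kept, and none of 6 endothelial or 8 leukocyte markers was kept. The libraries thus lacked the markers that define the labelled cell type, and they are named here by their labels only.

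The genes named in the genotypes come first. On chromosome 2, USP39 (85602856 to 85649282 in GENCODE 29, plus strand, ENSG00000168883) had 1066 reads in USP39-KO against 1511 in SIRT7-KO, or 64.8 against 92.5 CPM, a log2 ratio of -0.51 (interval -0.63 to -0.40). On chromosome 17, SIRT7 (81911939 to 81921323, minus strand, ENSG00000187531) had 808 reads in USP39-KO against 608 in SIRT7-KO, or 49.1 against 37.2 CPM, a log2 ratio of 0.40 (0.25 to 0.55). Each targeted gene was lower in its own knockout by less than 1.5-fold, and neither was lost at the RNA level.

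Most genes were close between the knockouts: 85.3% of the 10003 lay within 1.5-fold and the median log2 ratio of USP39-KO over SIRT7-KO was 0.02. A gene was called when its log2 ratio was at least 1 in size (2-fold) and its interval excluded 0. By this rule 196 genes, or 1.96%, were higher in USP39-KO and 274, or 2.74%, were lower in USP39-KO and so higher in SIRT7-KO, 4.7% in all. Among the genes with at least 100 counts in both libraries the counts were 114 and 155. At 1.5-fold, 657 genes (6.57%) were higher in USP39-KO and 811 (8.11%) lower, and the 1.5-fold shares of each gene list below stand against these 2 background shares. Called genes lay low in level, with a median of 14.7 CPM for those higher in USP39-KO and 14.6 CPM for those lower, against 46.9 CPM over all genes compared. In bulk RNA, fewer cells of a type and less RNA per cell cannot be told apart, and this holds for every value below. Of the 10003 genes, 9876 are protein-coding, and of the 19 non-coding genes 1 was called, against 4.7% of all genes compared. It was SRGAP2D, with 154 reads in USP39-KO and 311 in SIRT7-KO. This gene lies in the stretch of chromosome 1 described below, and its close copies make that value uncertain.

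**Figure D1:**
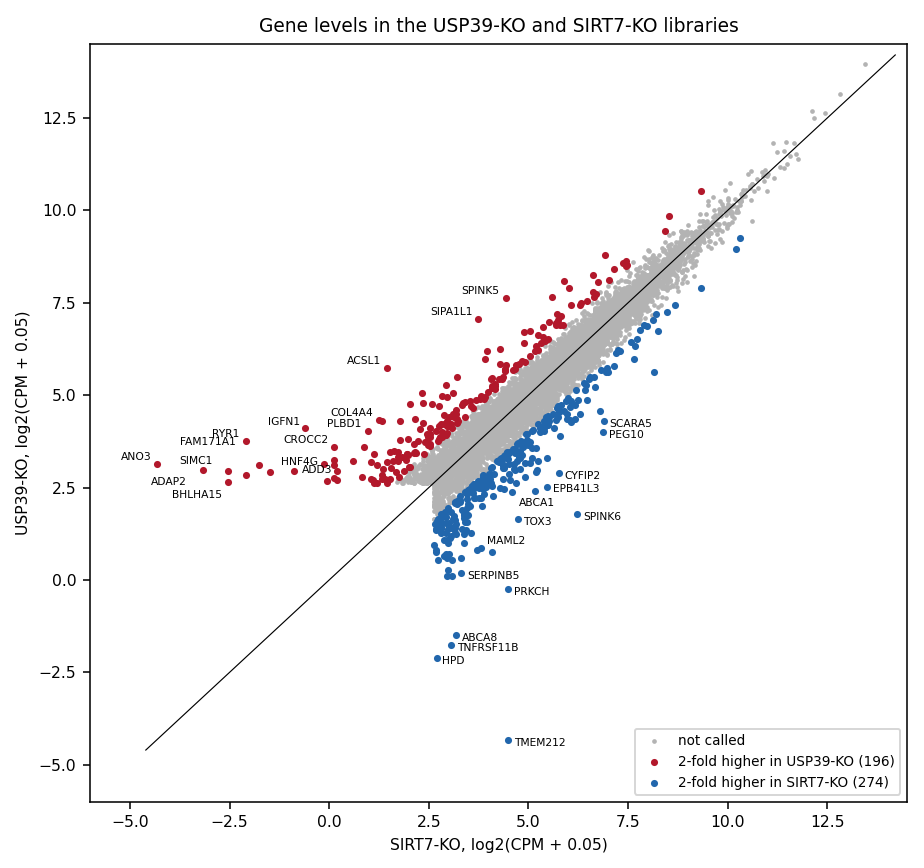
Level of each of the 10003 genes in SIRT7-KO (x axis) and USP39-KO (y axis), both as log2 of CPM plus 0.05, 1 dot a gene, with the line of equal levels. The 196 genes called higher in USP39-KO are red and the 274 called higher in SIRT7-KO blue. Genes among those farthest each way by their interval are named, and ANO3 (left edge) and TMEM212 (bottom) are the genes with 0 reads in 1 knockout.

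Several of the genes that most set USP39-KO above SIRT7-KO had 3 reads or fewer in SIRT7-KO. ANO3 (ENSG00000134343, chromosome 11, 26309599 to 26663288, plus strand), a TMEM16-family membrane protein, had 145 reads in USP39-KO, 0 in SIRT7-KO and 128 in the control. Against a floor of 3 counts the ratio was at least 48.0-fold in favour of USP39-KO. The lower bound of its exact interval, which also counts the error of the 145 reads, was 38.5-fold. RYR1, the calcium release channel of muscle, had 221 reads against 3 in SIRT7-KO, with 251 in the control. BHLHA15, a transcription factor of secretory cells, had 102 reads against 2. For these genes the SIRT7-KO library was the one near 0, while the control held reads as USP39-KO did.

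ACSL1, which joins long-chain fatty acids to coenzyme A, stood apart at a higher level, with 878 reads in USP39-KO, 44 in SIRT7-KO and 384 in the control (log2 ratio 4.29, 3.87 to 4.78). SPINK5, a serine protease inhibitor of epithelia, had 3237, 350 and 4729 reads in the same order and was 9.18-fold higher in USP39-KO than in SIRT7-KO. SIPA1L1, a Rap GTPase-activating protein, had 2198, 217 and 2255 reads, a log2 ratio of 3.33 (3.13 to 3.54). These 3 genes were well above the floor in both knockouts. COL4A4, a basement membrane collagen chain, had 332 against 38 reads. ADD3, an adducin of the membrane skeleton, had 127 against 8, and 665 in the control. HNF4G, a nuclear receptor related to HNF4A, had 123 against 5. The remaining genes of the 15 were SIMC1 (125 against 2 reads), IGFN1 (281 against 10), FAM171A1 (142 against 4), ADAP2 (117 against 3), CROCC2 (200 against 17) and PLBD1 (267 against 31).

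In the other direction the genes higher in SIRT7-KO were led by TMEM212 and by a further protease inhibitor. TMEM212 (ENSG00000186329, chromosome 3, 171843349 to 171938715, plus strand), a transmembrane protein gene, had 367 reads in SIRT7-KO and 0 in both USP39-KO and the control, and was at least 123-fold higher in SIRT7-KO than in USP39-KO by the floor of 3 counts, with a lower bound of 99.7-fold by the exact interval. SPINK6, a kallikrein inhibitor, had 1223 reads in SIRT7-KO, 56 in USP39-KO and 18 in the control (log2 ratio -4.45, -4.87 to -4.07). SPINK5 and SPINK6 lie on chromosome 5, SPINK5 at 148025683 to 148137289 and SPINK6 at 148202794 to 148215137 in GENCODE 29, both on the plus strand, and so pointed in opposite directions from neighbouring places. SPINK13, of the same family, had 729 reads in USP39-KO and 496 in SIRT7-KO and was not called.

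PRKCH, a protein kinase C isoform, had 13 reads in USP39-KO against 366 in SIRT7-KO and 422 in the control, so here USP39-KO was the library that stood low. PEG10, an imprinted gene derived from a retrotransposon, had the same order, with 261, 1910 and 2212 reads. EPB41L3, a membrane skeleton protein of the band 4.1 family, had 94 reads in USP39-KO, 718 in SIRT7-KO and 17 in the control, so the control was the lowest library there. HPD, an enzyme of tyrosine breakdown in liver, had 3 reads against 105. The lipid exporter ABCA1 had 87 against 584 reads, and its relative ABCA8 had 5 against 148. Also among the genes farthest this way were TNFRSF11B (4 against 136), TOX3 (51 against 431), CYFIP2 (121 against 887), SERPINB5 (18 against 162), MAML2 (29 against 228) and SCARA5 (325 against 1929). At least 100 reads in 1 knockout and at most 3 in the other were found for 8 genes, ANO3, RYR1, SIMC1, BHLHA15, ADAP2 and ENSG00000108753 (129 against 1) on the USP39-KO side, and TMEM212 and HPD on the SIRT7-KO side.

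The programme of ATF4, the amino acid and stress response, was higher in USP39-KO. Of 36 listed genes 35 were kept, 33 with at least 100 counts in both libraries. At 1.5-fold 21 of the 35 were higher in USP39-KO (60.0%, against 6.57% of all genes compared) and 1 was lower, and at 2-fold 13 were higher and none lower. The median log2 ratio was 0.82, against 0.02 over all genes compared, and 32 of the 35 were above 0. The promoters of the pair with the highest ratios are shown because both hold the C/EBP-ATF element TGATGNAA, the letters that ATF4 with its C/EBP partners is known to read, searched on both strands in the 250 bases before the start. The sequences are from RefSeq (GRCh38.p14), 5′ to 3′ on the strand of the gene, with the match in capitals. CHAC1 is at chr15:40953221-40953470 on the plus strand, and ASNS at chr7:97872409-97872658 on the minus strand.
CHAC1: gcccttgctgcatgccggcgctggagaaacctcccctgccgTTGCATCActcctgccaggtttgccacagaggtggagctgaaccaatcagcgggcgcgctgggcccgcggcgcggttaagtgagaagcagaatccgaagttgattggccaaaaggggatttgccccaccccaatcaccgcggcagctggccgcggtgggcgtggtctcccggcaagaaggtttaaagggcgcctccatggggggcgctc
ASNS: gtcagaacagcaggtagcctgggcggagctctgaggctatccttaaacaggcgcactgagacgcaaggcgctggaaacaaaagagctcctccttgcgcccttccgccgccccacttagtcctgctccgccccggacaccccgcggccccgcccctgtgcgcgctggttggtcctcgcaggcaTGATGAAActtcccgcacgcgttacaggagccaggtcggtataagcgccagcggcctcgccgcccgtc
The matches begin 209 bases before the CHAC1 start and 68 before the ASNS start, and the CHAC1 match is on the opposite strand. The element was found in 5 of the 28 ATF4 programme genes with a promoter entry (17.9%), in 176 of 8146 of all genes compared that had one (2.16%), and in 3.14% of all 35116 entries. The 5 genes were CHAC1, ASNS, SLC1A5, CEBPG and JDP2. Their median log2 ratio was 0.82 and that of the 23 without it 0.77, so the letters did not separate members by size. A match is a description of the letters only.

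CHAC1, which breaks down glutathione, had 633 reads in USP39-KO, 124 in SIRT7-KO and 730 in the control, a log2 ratio of 2.34 (2.06 to 2.63) between the knockouts. ASNS, asparagine synthetase, had 4480, 970 and 3693 reads, a log2 ratio of 2.20 (2.10 to 2.30). SLC7A11, the cystine importer, had 3321, 788 and 3461 reads, a log2 ratio of 2.06 (1.95 to 2.18). In all 3 genes SIRT7-KO was the lowest of the libraries, and the control lay closer to USP39-KO. Other amino acid enzymes differed the same way: PSPH, the last step of serine synthesis, was at 146 against 52.6 CPM, and CTH, which makes cysteine, at 173 against 67.2 CPM. TRIB3, a pseudokinase that feeds back on ATF4, was at 126 against 45.8 CPM. PHGDH, the first step of serine synthesis, was at 483 against 253 CPM, 1 of 4 genes at least 1.5-fold higher in USP39-KO within the stretch of chromosome 1 described below. ATF4 itself differed little in RNA, with 410 CPM in USP39-KO, 339 in SIRT7-KO and 366 in the control. The most read member, the amino acid exchanger SLC7A5, had 26570 and 24487 reads, a log2 ratio of 0.11 that was not called. DDIT4, an mTOR inhibitor that is also a hypoxia gene, went the other way with a log2 ratio of -0.73. PHGDH, ATF4 and DDIT4 were chosen for naming after their values were seen.

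The tRNA synthetases, which load amino acids onto tRNA and are known ATF4 targets in part, leaned the same way. Of 20 cytosolic enzymes listed 19 were kept, 7 were 1.5-fold higher in USP39-KO (36.8%, against 6.57% of all genes compared) and none lower (against 8.11%), and the median log2 ratio was 0.39. GARS1, for glycine, had 15234 reads in USP39-KO, 5990 in SIRT7-KO and 12415 in the control (log2 ratio 1.34, 1.29 to 1.38). WARS1, for tryptophan, had 6308, 2724 and 5876 reads, a log2 ratio of 1.20. These were the only members past 2-fold. MARS1, CARS1, AARS1, YARS1 and TARS1 were between 1.65-fold and 1.88-fold higher in USP39-KO. The element TGATGNAA was found before 3 of 16 members with a promoter entry (18.8%, against 2.16% of all genes compared), AARS1, GARS1 and IARS1. Their median log2 ratio was 0.83 and that of the members without it 0.33, but 3 genes are few and the difference was not tested.

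**Figure D2:**
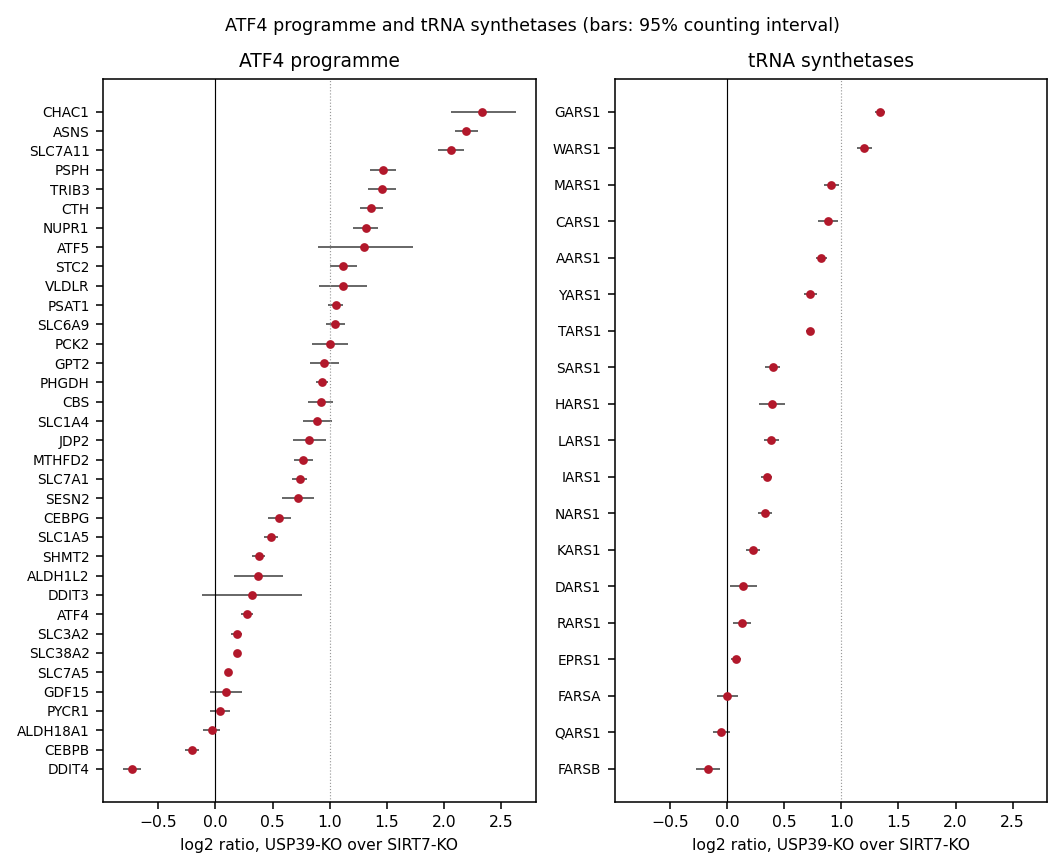
Log2 ratio of USP39-KO over SIRT7-KO (x axis) of each kept member of the ATF4 programme (left, 35 genes) and the tRNA synthetases (right, 19 genes), with bars for the 95% counting interval and a dotted line at 2-fold. CHAC1 at 2.34 and GARS1 at 1.34 head the panels, and DDIT4 at -0.73 is the lowest member of the left panel.

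Genes of lipid synthesis and the mitochondrial genome were also on the USP39-KO side, by smaller amounts. Of 25 cholesterol synthesis and uptake genes 21 were kept, 7 were 1.5-fold higher in USP39-KO (33.3%, against 6.57%) and none lower, with a median log2 ratio of 0.47. ACAT2, which makes acetoacetyl-CoA, had 1237 reads in USP39-KO, 611 in SIRT7-KO and 1277 in the control, and was the only one past 2-fold at a log2 ratio of 1.01. LSS, lanosterol synthase, was at 269 against 135 CPM, HMGCS1, which makes HMG-CoA, at 223 against 122 CPM, and SQLE, squalene epoxidase, at 181 against 106 CPM. Among 25 kept fatty acid genes 7 were 1.5-fold higher (28.0%, against 6.57%) and none lower, but the median was 0.06. PDK4, which restrains pyruvate oxidation, had 6064 against 2881 reads and ACSL1 was the extreme already given.

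All 13 protein genes of the mitochondrial genome were above 0, with a median log2 ratio of 0.48, and 3 were 1.5-fold higher in USP39-KO (23.1%, against 6.57%): MT-ATP8, MT-ND1 and MT-CYB. MT-ATP8 overlaps MT-ATP6, so how its reads were assigned is uncertain. MT-CO1, the most read, had 263247 reads in USP39-KO and 180638 in SIRT7-KO, a log2 ratio of 0.53. These transcripts come from shared precursors, so the 13 are not separate observations, and together they held 5.29% of counts in USP39-KO, 3.96% in SIRT7-KO and 4.85% in the control. The nuclear genes of the respiratory chain did not follow, with a median of 0.02 over 60 kept genes, 2 of them 1.5-fold higher and 1 lower. Of 39 HOX genes, which pattern the body axis, 13 were kept and 12 of them lay above 0, with 4 at 1.5-fold higher (30.8%, against 6.57%) and none lower. HOXB7 had 292 reads in USP39-KO against 110 in SIRT7-KO, with 348 in the control.

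**Figure D3:**
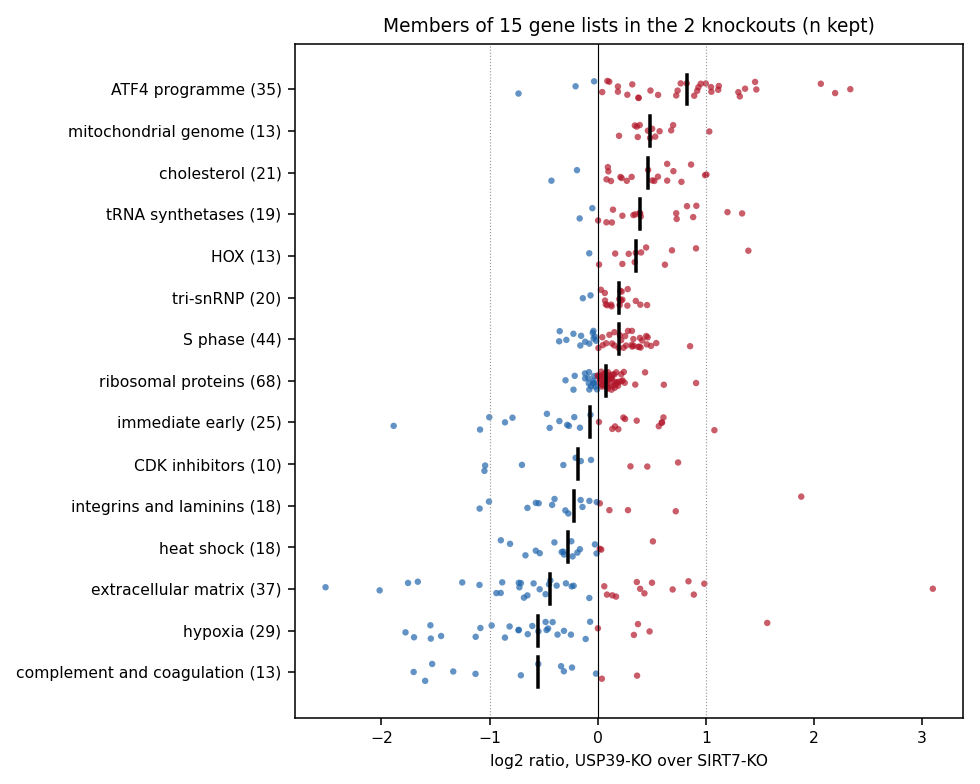
Log2 ratio of USP39-KO over SIRT7-KO (x axis) of each kept member of 15 gene lists (rows, with the number of kept members), red above 0 and blue below, with a black bar at the median of each list and dotted lines at 2-fold. The ATF4 programme has its median at 0.82 and hypoxia at -0.55, against 0.02 over all genes compared.

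The hypoxia genes were on the SIRT7-KO side. Of 31 listed genes 29 were kept, 25 with at least 100 counts in both libraries. At 1.5-fold 14 of the 29 were lower in USP39-KO (48.3%, against 8.11% of all genes compared) and 1 higher, and the median log2 ratio was -0.55. At 2-fold 7 were lower and 1 higher. EGLN3, CA9 and PPFIA4, among these 7, passed through SIRT7-KO only, so they had to be lower in USP39-KO. The promoters of CA9 and PPFIA4 are shown because they are the members with the lowest ratios that hold ACGTGC, the hypoxia response core ACGTG followed by C, searched on both strands in the 250 bases before the start. They are from RefSeq (GRCh38.p14), 5′ to 3′, both genes on the plus strand, CA9 at chr9:35673678-35673927 and PPFIA4 at chr1:203026241-203026490, with the match in capitals.
CA9: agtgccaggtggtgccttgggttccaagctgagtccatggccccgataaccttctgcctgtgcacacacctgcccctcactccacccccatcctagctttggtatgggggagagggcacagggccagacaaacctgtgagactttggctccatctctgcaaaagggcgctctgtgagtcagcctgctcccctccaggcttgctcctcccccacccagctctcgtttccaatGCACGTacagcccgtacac
PPFIA4: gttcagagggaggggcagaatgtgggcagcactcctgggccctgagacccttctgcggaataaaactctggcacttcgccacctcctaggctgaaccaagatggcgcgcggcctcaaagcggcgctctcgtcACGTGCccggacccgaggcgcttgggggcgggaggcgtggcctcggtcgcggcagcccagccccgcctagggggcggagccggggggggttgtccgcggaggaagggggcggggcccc
The match begins 19 bases before the CA9 start, on the opposite strand, and 118 before the PPFIA4 start. Letters ACGTGC were found before 9 of 24 hypoxia genes with an entry (37.5%), before 9.86% of all genes compared and in 5.83% of all entries. The shorter core ACGTG, which holds every ACGTGC, was found before 15 of the 24 (62.5%), before 29.6% of all genes compared and in 18.5% of all entries. Members with and without the shorter core had medians of -0.55 and -0.65, and those with and without ACGTGC had medians of -0.60 and -0.47.

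ADM, a vasodilator peptide, had 320 reads in USP39-KO, 1090 in SIRT7-KO and 684 in the control, a log2 ratio of -1.78 (-1.96 to -1.60). EGLN3, an oxygen sensor that marks HIF for removal, had 31, 101 and 88 reads. CA9, a carbonic anhydrase used as a hypoxia marker, had 50, 146 and 147 reads, and PPFIA4, a liprin, 65, 189 and 176. NDRG1, a stress-responsive growth regulator, was the most read of those past 2-fold, with 3893, 10544 and 7800 reads and a log2 ratio of -1.45. In each of these 5 genes USP39-KO was the lowest of the 3 libraries. HIF1A, which encodes the oxygen-labile factor itself, was at 132 against 280 CPM, with 185 in the control, and was named after its value was seen. SLC2A3, a glucose transporter, went the other way with 951 reads in USP39-KO, 318 in SIRT7-KO and 1443 in the control. VEGFA, the vessel growth factor, was not called, at 224 against 178 CPM.

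Glycolysis, which HIF also drives, leaned less. Of 21 genes 17 were kept and 13 of them lay below 0 with a median log2 ratio of -0.14, but 2 were 1.5-fold lower in USP39-KO (11.8%, against 8.11%) and 1 higher (5.88%, against 6.57%), shares near the background. HK2, the inducible hexokinase, had 2401 reads in USP39-KO and 4813 in SIRT7-KO, a log2 ratio of -1.01. HKDC1, a related hexokinase, had 198 against 29, with 1036 in the control. ENO1, the most read member, was level at 46987 and 49334 reads.

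Genes of the extracellular matrix were more often lower than higher in USP39-KO, with wide spread. Of 65 listed genes 37 were kept, 15 were 1.5-fold lower in USP39-KO (40.5%, against 8.11%) and 5 higher (13.5%, against 6.57%), 6 were 2-fold lower and 1 higher, and the median was -0.44. FN1, fibronectin, had 813 reads in USP39-KO, 4621 in SIRT7-KO and 871 in the control, a log2 ratio of -2.52 (-2.63 to -2.41), so the SIRT7-KO library alone stood high. FBN2, a microfibril protein, had 8184, 19356 and 10104 reads and was likewise highest in SIRT7-KO. SERPINE2, a serine protease inhibitor, had 152, 612 and 401 reads. ADAMTS15, a proteoglycan-cleaving protease, had 146 against 490 reads. The exception past 2-fold was COL4A4, given above, and the most read member, the anchoring fibril collagen COL7A1, was level at 18200 and 17021 reads.

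Integrins, the receptors for matrix, and laminins held few members past 1.5-fold, in both directions. Of 18 kept genes 3 were 1.5-fold lower in USP39-KO (16.7%, against 8.11%) and 2 higher (11.1%, against 6.57%). The median was -0.21, and 13 of the 18 lay below 0. ITGB4 and ITGA3, integrin chains that bind laminin, had 471 against 997 and 1944 against 3874 reads. ITGB8, another integrin chain, had 120 against 72 reads. LAMA1, a laminin chain and so matrix rather than receptor, had 3899 reads in USP39-KO, 1049 in SIRT7-KO and 2017 in the control, a log2 ratio of 1.88 (1.78 to 1.98). Among 24 kept mesenchymal genes 7 were 1.5-fold lower (29.2%, against 8.11%) and 2 higher (8.33%, against 6.57%), 10 lay above 0, with a median of -0.21. TCF4, a bHLH factor, had 28 reads in USP39-KO, 212 in SIRT7-KO and 31 in the control. The cytokine gene TGFB1 was at 142 against 273 CPM. ZEB2, a repressor of epithelial genes, went the other way with 471 against 288 reads, and the actin-binding protein gene CALD1, with 10526 against 7615, was not called.

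Inhibitors of the cell cycle held members of both directions. Of 11 listed CDK inhibitors and pocket proteins 10 were kept, 3 were 1.5-fold lower in USP39-KO (30%, against 8.11%) and 1 higher (10%, against 6.57%), and the median log2 ratio was -0.18. CDKN1A, the p21 inhibitor of the cell cycle, had 1156 reads in USP39-KO, 2372 in SIRT7-KO and 1289 in the control, a log2 ratio of -1.05 (-1.15 to -0.95). CDKN1C, an imprinted inhibitor, had 745, 1522 and 1554 reads. The control lay near USP39-KO for CDKN1A and near SIRT7-KO for CDKN1C. CDKN2B, an inhibitor of CDK4 and CDK6, was at 27.8 against 45.3 CPM, and CDKN2C, of the same family, went the other way at 94.2 against 56.2 CPM. FAS, a death receptor, had 128 reads in USP39-KO, 412 in SIRT7-KO and 188 in the control, a log2 ratio of -1.69, and was named after its value was seen.

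**Figure D4:**
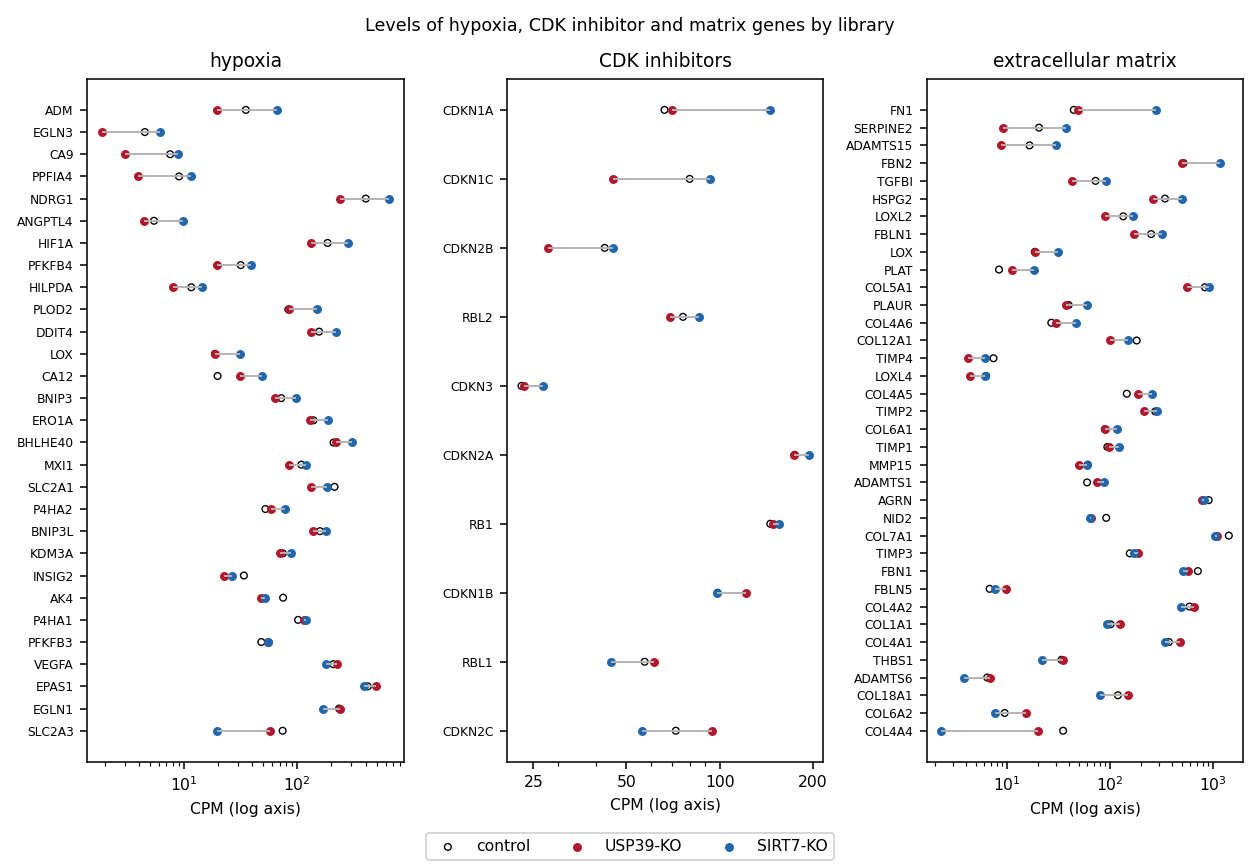
Level in CPM (x axis, log scale) of each kept member of the hypoxia (29 genes), CDK inhibitor (10) and extracellular matrix (all but 1 of 37) lists in USP39-KO (red), SIRT7-KO (blue) and the control (open circles), 1 row a gene, ordered by the ratio of the knockouts. Rows near the top have the blue point on the right: ADM at 19.5 against 66.8 CPM, CDKN1A at 70.3 against 145 and FN1 at 49.4 against 283.

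Heat shock genes lay mostly below 0, and most differed by less than 1.5-fold. Of 23 listed genes 18 were kept and 15 lay below 0, with a median of -0.28, but none passed 2-fold and 3 were 1.5-fold lower in USP39-KO (16.7%, against 8.11%). HSPA8, the constitutive HSP70, had 13878 reads in USP39-KO, 25627 in SIRT7-KO and 15694 in the control. Its co-chaperone DNAJB4 had 924, 1609 and 870, and the small heat shock protein HSPB1 6041, 9527 and 7144. In these 3 genes SIRT7-KO was the high library. Complement and coagulation genes had 13 of 42 kept, 10 with at least 100 counts in both libraries. At 1.5-fold 6 of the 13 were lower (46.2%, against 8.11%) and none higher, with a median of -0.55. Without the 1 member in the stretch of chromosome 1 described below, 5 of 12 were lower and the median was -0.44. C3, the central complement protein, had 1735 reads in USP39-KO, 4977 in SIRT7-KO and 5825 in the control, and C1R, which starts the classical pathway, 43, 140 and 63. C1R passed through SIRT7-KO only, so it had to be lower in USP39-KO.

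Immediate early genes held members of both directions, and nuclear receptor genes lay mostly below 0. Of 25 kept immediate early genes 4 were 1.5-fold higher in USP39-KO (16.0%, against 6.57%) and 5 lower (20%, against 8.11%), with a median of -0.07. JUN had 244 reads in USP39-KO, 897 in SIRT7-KO and 411 in the control, a log2 ratio of -1.89 (-2.10 to -1.68), while NR4A3, an orphan nuclear receptor, had 1391, 653 and 919. Among 25 kept nuclear receptors 6 were 1.5-fold lower (24.0%, against 8.11%) and 2 higher (8%, against 6.57%). Their median was -0.28, and 21 of the 25 lay below 0. The clock repressor NR1D1 had 336 reads in USP39-KO, 1018 in SIRT7-KO and 386 in the control, and the vitamin D receptor VDR 183, 453 and 386.

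In the BMP and TGF-beta pathway members differed in both directions. Of 22 kept genes 5 were 1.5-fold higher in USP39-KO (22.7%, against 6.57%) and 4 lower (18.2%, against 8.11%), with a median of 0.14. At 2-fold 4 were higher and 1 lower, with the lowest log2 ratio at -1.66. The ligand BMP2 had 6482 reads in USP39-KO, 2854 in SIRT7-KO and 3299 in the control, a log2 ratio of 1.17 (1.11 to 1.24). The BMP-binding protein BMPER had 105, 15 and 58 reads and passed through USP39-KO only, so it had to be higher there than in SIRT7-KO. The intracellular mediators SMAD9 and SMAD6, an activator and an inhibitor, had 461 against 171 and 2932 against 1300 reads. Of the genes named here, BMP2, BMPER, SMAD9 and SMAD6 were higher in USP39-KO, whereas TGFB1, given above, was higher in SIRT7-KO. ID1, a BMP target, was nearly level at 364 against 400 CPM. Among 18 kept NF-kB genes 4 were 1.5-fold higher (22.2%, against 6.57%) and 1 lower (5.56%, against 8.11%). RELB, a subunit of NF-kB, had 427 against 110 reads and its feedback inhibitor TNFAIP3 3342 against 1620, whereas SOCS3 had 217 against 537. Among 13 kept Notch genes 2 were 1.5-fold higher (15.4%, against 6.57%) and 4 lower (30.8%, against 8.11%). Their median was -0.42, and -0.21 without the 1 member in the stretch of chromosome 1 described below. The receptor NOTCH3 was at 2877 against 6707 reads and the target HES1 at 266 against 156.

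The RNA of genes for the machinery that each targeted protein serves differed little. Splicing and ribosomal RNA synthesis themselves were not measured. Of 23 genes of the tri-snRNP, the complex that USP39 belongs to, 20 were kept and none passed 1.5-fold, in a list without USP39 itself. Their median log2 ratio was 0.20, with 18 of 20 above 0, and PRPF8, the largest core protein, had 16836 against 13086 reads. Other spliceosome genes had a median of 0.17 over 43 kept, with 1 at 1.5-fold higher (2.33%, against 6.57%), ISY1, at 414 against 227 reads. Genes of ribosomal RNA synthesis, where SIRT7 is known to act, had a median of 0.11 over 48 kept. Of the 48, 1 was 1.5-fold higher (2.08%, against 6.57%) and 1 lower (2.08%, against 8.11%). Those were UTP4, with 623 against 291 reads, and TAF1B, a subunit of the polymerase I selectivity factor, with 152 against 229. Ribosomal protein genes had a median of 0.08 over 68 kept, with 2 at 1.5-fold higher (2.94%, against 6.57%). Of 44 kept S phase genes 1 was 1.5-fold higher (2.27%, against 6.57%), GINS3, with 454 against 249 reads, and the median was 0.20. No kept gene of the proteasome (34), the sirtuins (5) or mitochondrial gene expression (33) passed 1.5-fold.

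Neighbouring genes on a long stretch of chromosome 1 were mostly lower in USP39-KO. Kept genes were placed along each chromosome in GENCODE 29 and cut into 319 windows of 30 neighbouring genes, and the median log2 ratio was taken in each. A median past 0.25 in size was found in 17 windows, of which 10 formed 1 unbroken run on chromosome 1 from CDC7 to KIFAP3, positions 91500893 to 170085208. The other 7 lay apart from it, in runs of 1 window, on chromosomes 1, 5, 7, 13, 14, 17 and 19. Of these the window on chromosome 14 had the highest median, 0.39, and that on chromosome 1, from HHIPL2 to ZNF678 (222522258 to 227677443), the lowest, -0.41, with 29 of its 30 genes below 0. In the run 268 of 300 genes (89.3%) were below 0 and the median was -0.42, that is, USP39-KO stood at 0.747 times SIRT7-KO. The rest of chromosome 1 had a median of -0.01 over 765 genes, and all genes outside the run 0.03. That rest was not even: the windows on either side of the one at HHIPL2 had medians of -0.21 and -0.24, and the next, from TSNAX to DESI2, -0.18. The 10 window medians ranged from -0.54 to -0.28. Against the control, which both values share, the run had a median of -0.15 in USP39-KO and 0.25 in SIRT7-KO. The stretch was found after the values were seen, and gene copy number was not measured here.

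Within the run 93 genes (31.0%) were 1.5-fold lower in USP39-KO and 29 (9.67%) were 2-fold lower, with 2 at 2-fold higher, SLC22A15 and TLCD4. ECM1, a secreted matrix protein, had 393 reads in USP39-KO, 1819 in SIRT7-KO and 464 in the control. MUC1, a membrane mucin, had 1434, 3080 and 2747 reads. IFI16, a sensor of DNA, had 266, 681 and 421. F3, tissue factor, had 107, 233 and 236. None of the kept members of the hypoxia, extracellular matrix and CDK inhibitor lists lies in the run, although matrix genes outside those lists do, such as ECM1, and without it the counts of 2-fold calls were 194 higher and 245 lower. The ATF4 programme had 1 member in it, PHGDH, and a median of 0.80 without it. ECM1, MUC1, IFI16, SLC22A15 and TLCD4 were named after their values were seen.

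**Figure D5:**
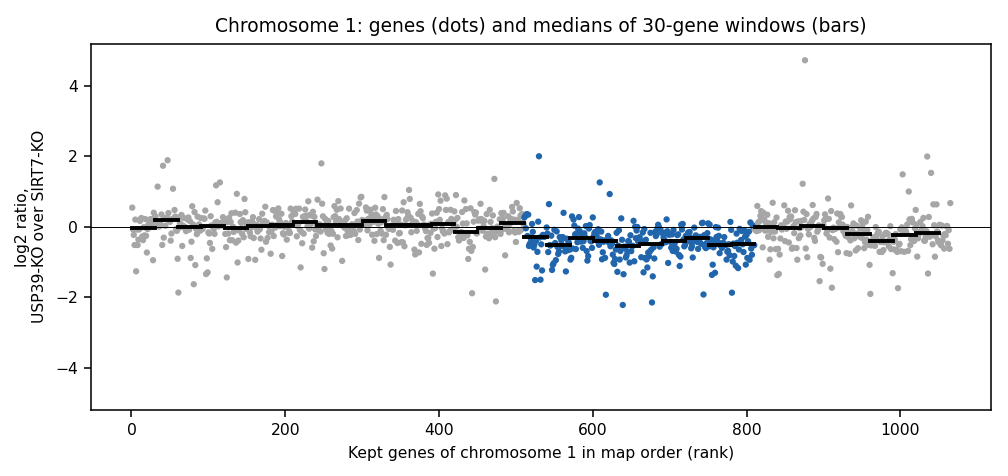
Log2 ratio of USP39-KO over SIRT7-KO (y axis) of the 1065 kept genes of chromosome 1 in map order (x axis), 1 dot a gene, with bars at the median of each window of 30 genes. The 300 genes of the run from CDC7 to KIFAP3 are blue, with window medians from -0.54 to -0.28, and the other genes are grey.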

How the data were processed

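Total RNA of cells labelled Hep3B was extracted with Trizol and made into TruSeq RNA libraries, per the labels' protocols, with 1 library of USP39-KO, 1 of SIRT7-KO and 1 control. The authors deposited read counts, which are whole numbers per gene and not normalized, and FPKM, which are those counts scaled by a listed length and the library total, per the file headers and checked on the values; FPKM was not used in any ratio. The aligner, counter, build and annotation, and the handling of strand, overlaps and close copies, were not given in the sources used here. Values of overlapping or copied genes are therefore uncertain. The number of columns left without a library was 0. Symbols and positions come from GENCODE 29 through the Ensembl identifiers, and 108 kept genes had no symbol there.

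Totals were 16630636, 16151522 and 19427940 counts, and the median interval of a kept gene was 0.30 wide on the log2 scale. TMM factors of the 2 knockout libraries (edgeR 4.0.16, R 4.3.3; 0.989 and 1.011) set the library sizes. Control CPM used factors of all 3 libraries. The log2 ratio had a prior of 0.5 counts and an exact conditional binomial (Clopper-Pearson) 95% interval (scipy 1.17.1). Since reads carry no molecular identifiers they are not independent molecules, and both intervals and floors cover only counting error. Where a gene has 0 reads up to 3 counts are allowed, or 0.182 CPM in USP39-KO and 0.184 in SIRT7-KO. With 1 library a side no dispersion can be estimated, and no test, set test or p-value was made. Steps were tested on simulated counts.

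The members, the 66 gene lists and the rules were chosen with earlier results of these data known. Of 2117 list symbols 2093 were found and 1315 kept. Named genes are USP39, SIRT7, the 15 protein-coding genes each way with the bound of the interval farthest from 0, genes with at least 100 counts against at most 3, up to 3 non-coding genes each way and, per described list, up to 6 members farthest from 0 and the most read. Others are said to be named after their values were seen. Some genes that these rules pick are not reported here. Promoters are RefSeq entries (GRCh38.p14), read 250 bases before each listed start and matched by symbol for 8146 kept genes. Alternatives were other scalings (DESeq2 1.42.0 median of ratios among them), count minimums, a prior of 2 counts, a stricter call, totals without mitochondrial genes and, added after the data were seen, leaving out a stretch of chromosome 1.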

Additional observations from a re-analysis of the deposited data

How the results depend on the processing

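Counts of 2-fold calls (higher, then lower in USP39-KO) moved by over 1.5 times only with the count minimum, which changes the genes eligible, and with a stricter call on the same genes: 444 and 635 with at least 10 counts, 479 and 695 with at least 1, 111 and 149 with at least 300, 114 and 155 with at least 100 in both libraries, and 120 and 154 where the whole interval had to pass 2-fold. At 1.5-fold the counts were 1007 and 1305 with at least 10 counts, 1042 and 1365 with at least 1, and 420 and 517 with at least 300. Under the other scalings, the prior of 2 counts, totals without mitochondrial genes and without the stretch of chromosome 1 the counts stayed within 1.5 times. Over 63 lists and 11 settings, 663 of 693 list medians stayed within the median counting error of their members, 21 moved further and 9, of lists with a median at least 0.1 in size, changed sign: interferon-stimulated genes (0.17 and 0.0816 with at least 10 and at least 1 count), SPINK and kallikrein genes (-0.12 and -0.0655, likewise), growth factor receptors (0.0933 with at least 300 counts and with 100 in both), hepatic transcription factors (0.0857 with at least 1), and without the stretch of chromosome 1 the Eph and ephrin genes (0.13) and mucins (0.22). Of the lists the report describes, those that moved further were the mitochondrial genome, glycolysis, immediate early genes, Notch genes, the sirtuins and the fibroblast markers. The mitochondrial genome stood at 0.45 with library totals, and glycolysis at -0.20 with at least 300 counts and with 100 in both. Immediate early genes stood at -0.22 with at least 1 count, and the sirtuins, at 0.05 in the main setting, at -0.15 with at least 300. Fibroblast markers went from -0.08 to -0.60 with at least 10 counts and -1.59 with at least 1. The Notch median was -0.42 in the main setting, -0.21 without the stretch of chromosome 1, -0.11 with at least 10 counts and -0.0072 with at least 1. The cause was not tested. Library totals with no factor shifted list medians by -0.03. Depth limits genes near 100 counts most, and with 1 library a side leaving out a replicate was not possible. No paired analysis was possible because each genotype had 1 library and the labels carry no replicate number.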

Other observations

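Axon guidance and epithelial genes also held single members that set the knockouts apart while the medians of these families lay near 0. Of 20 kept axon guidance genes 3 were 1.5-fold higher in USP39-KO and 2 lower, with a median log2 ratio of 0.01. SEMA6A, a transmembrane semaphorin, had 155 reads in USP39-KO, 17 in SIRT7-KO and 168 in the control, whereas SEMA4B had 1311, 3329 and 2134. Of 26 kept epithelial genes 2 were 1.5-fold higher (7.69%, against 6.57%) and 3 lower (11.5%, against 8.11%), shares near the background, with a median of 0.02. Outside the stretch of chromosome 1 described above, 1 of 24 was 1.5-fold lower. The tight junction gene CLDN1 had 445, 96 and 379 reads and the polarity gene CRB3 had 112, 28 and 215, so both were lowest in SIRT7-KO. Both passed through USP39-KO only, so they had to be higher there than in SIRT7-KO. GRHL1, an epithelial transcription factor, had 136, 274 and 173.

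Transporters and growth factors gave further large differences. Among 21 kept ABC transporter genes 2 were 1.5-fold higher (9.52%, against 6.57%) and 5 lower (23.8%, against 8.11%). ABCC9, the SUR2 part of a potassium channel, had 740 reads in USP39-KO, 149 in SIRT7-KO and 119 in the control, whereas the exporters ABCC2 and ABCC3 had 2512 against 5822 and 421 against 1066. Among 12 kept growth factor genes 2 were 1.5-fold higher (16.7%, against 6.57%) and 4 lower (33.3%, against 8.11%). IGFBP3, which binds insulin-like growth factors, had 335, 1167 and 945 reads, and FGF2, a fibroblast growth factor, had 2561, 1380 and 2311. The imprinted genes divided too, with KCNQ1, a potassium channel, at 826 against 344 reads and PHLDA2, which restrains placental growth, at 653 against 1109.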
